A study of Mus musculus with 7 samples.

Results

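The genes described here are the receptors and ligands that direct the production of myeloid and dendritic cells: the receptors Csf1r, Kit, Flt3, Csf2ra, Csf2rb, Il3ra and Csf3r, and the ligands Csf1, Csf2 and Flt3l. Every probe set annotated to 1 of these genes alone was taken, which gave 16 probe sets for 9 of the 10 genes, out of 22625 probe sets measured, or 9 of 12393 genes with a probe set of their own. The probe set annotated to Flt3l is also annotated to the ribosomal protein gene Rpl13a, so Flt3l was left out. The rule used function and annotation only, but the genes were proposed with earlier results of these data known.

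Expression was measured in CD11c+ cells enriched with magnetic beads from mouse spleen on day 7 after an allogeneic hematopoietic stem cell transplant (allo-HSCT), a graft of blood stem cells from a genetically different donor. CD11c is an integrin carried by dendritic cells. A total of 4 arrays was labelled WT (C57BL/6J) and 3 were labelled Atg16L1 hypomorphic (C57BL/6J), and the transplant was common to both groups. Atg16l1 encodes a protein of autophagosome formation, and a hypomorphic allele keeps part of a gene's function. The mice were 9 weeks old at collection per the sample protocol and 8 weeks old per the description of the experiment. The sources used here do not say whether the genotype is that of the donor, of the recipient or of both, nor what strain the other partner of the transplant was. Whether the 7 arrays stand for 7 animals is not stated either, and the p-values then describe array-to-array spread, which may be technical.

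Hematopoietic growth factors bind receptors of 2 structural kinds. Csf1r, Kit and Flt3 are receptor tyrosine kinases, which phosphorylate themselves when their ligands M-CSF, stem cell factor and Flt3 ligand bring them together. The receptors of GM-CSF, interleukin-3 and G-CSF have no kinase of their own and signal through JAK kinases and STAT transcription factors. Flt3 ligand drives the formation of dendritic cells from bone marrow progenitors, GM-CSF supports dendritic cells in tissues, and M-CSF maintains monocytes and macrophages. In a bulk preparation, fewer cells of a type and less RNA per cell cannot be told apart.

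The stretches before the transcription start are shown for Kit, the member with the largest difference below, and for Csf2ra and Csf3r, whose promoters are textbook targets of the myeloid factor PU.1, which binds sites built on the ETS core. Each stretch is the 250 bases before the RefSeq start (GRCm38.p6), with the letters AGGAAG or their reverse complement CTTCCT in capitals.
Kit (chr5:75574737-75574986, plus strand): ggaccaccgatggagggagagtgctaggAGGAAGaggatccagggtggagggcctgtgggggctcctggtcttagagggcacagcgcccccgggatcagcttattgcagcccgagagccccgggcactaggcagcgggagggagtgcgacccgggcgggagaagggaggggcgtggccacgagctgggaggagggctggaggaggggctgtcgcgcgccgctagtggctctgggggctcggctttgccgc
Csf2ra (chr19:61228419-61228668, minus strand): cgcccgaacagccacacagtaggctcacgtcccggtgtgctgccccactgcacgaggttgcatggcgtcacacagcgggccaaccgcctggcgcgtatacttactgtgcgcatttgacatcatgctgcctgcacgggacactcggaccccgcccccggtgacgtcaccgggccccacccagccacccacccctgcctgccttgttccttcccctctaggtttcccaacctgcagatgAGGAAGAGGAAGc
Csf3r (chr4:126024409-126024658, plus strand): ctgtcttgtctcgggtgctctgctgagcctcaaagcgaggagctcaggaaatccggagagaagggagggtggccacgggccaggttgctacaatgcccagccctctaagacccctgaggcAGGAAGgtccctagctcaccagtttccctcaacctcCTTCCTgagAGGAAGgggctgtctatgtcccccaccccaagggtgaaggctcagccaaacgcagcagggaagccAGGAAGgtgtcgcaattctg
The letters occur 1 time before Kit, 2 times before Csf2ra and 4 times before Csf3r. Of the 8 of the 10 named genes whose promoter entry was used, 5 hold them, and 29.5% of all 32851 promoter stretches of this length do. The first count is of genes and the second of stretches, and no stretch was used for Csf1r or Csf2rb. The GATA letters AGATAA or their reverse complement TTATCT were searched too. They were held by 1 of the 8 genes, Csf2, and by 9.99% of all stretches. A match is a description of the letters, and the arrays did not measure binding.

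The arrays had medians between 5.46 and 5.53 on the log2 scale, lower quartiles between 3.31 and 3.39 and upper quartiles between 7.58 and 7.65. Atg16l1, the altered gene, was lower in every hypomorph array (wild type 7.30 ± 0.0924, SD, n = 4; hypomorph 6.86 ± 0.0912, SD, n = 3), with a limma adjusted p = 0.462. Its exact two-sided permutation p of 0.0286 is the minimum for 35 splits of 7 arrays. Itgax, which encodes CD11c, read 7.98 to 8.33 in wild type against 7.98 to 8.48 in the hypomorph, above the upper quartile of every array. The preparation was not pure by its transcripts: on every array, 13 of 13 measured red pulp macrophage markers, 10 of 13 neutrophil markers and 6 of 9 T cell markers were also above the upper quartile. Of the 8 pan dendritic cell markers, 4 were.

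None of the 16 probe sets passed the threshold of 0.05 on the adjusted p (limma with Benjamini-Hochberg adjustment over all 22625 probe sets), and 0% of all probe sets did. At an unadjusted p under 0.05 there were 2 of 16, 12.5%, where the share over all probe sets was 7.69%. These were 1 probe set of Kit, lower in the hypomorph (background 3.34% in this direction), and that of Csf2rb, higher (background 4.35%). In 0 of 16 did the arrays of the groups separate without overlap, against 5.57% of all probe sets. The log2 change was above 0 for 5 of 11 receptor probe sets and 3 of 5 ligand probe sets, where 50.7% of all probe sets were above 0, and the median over the 16 was 0.00, as over all probe sets. Both calls were lost with wild-type replicate 2, hypomorph replicate 1 or hypomorph replicate 3 left out, and in the last case 1 other probe set, Csf2ra 1420704_at, was below 0.05. Kit was lost with wild-type replicate 3 left out (count of 1) and with wild-type replicate 4 left out, when Csf1r 1423593_a_at joined Csf2rb (count of 2, both higher). Csf2rb was lost with wild-type replicate 1 left out, when Csf1 1425154_a_at joined Kit (count of 2). With hypomorph replicate 2 left out the count was 4, Csf1 1425154_a_at and the dimmer Kit probe set having joined, and with array weights it was also 4, with Csf1 1425154_a_at and Csf2ra 1420704_at.

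**Figure D1:**
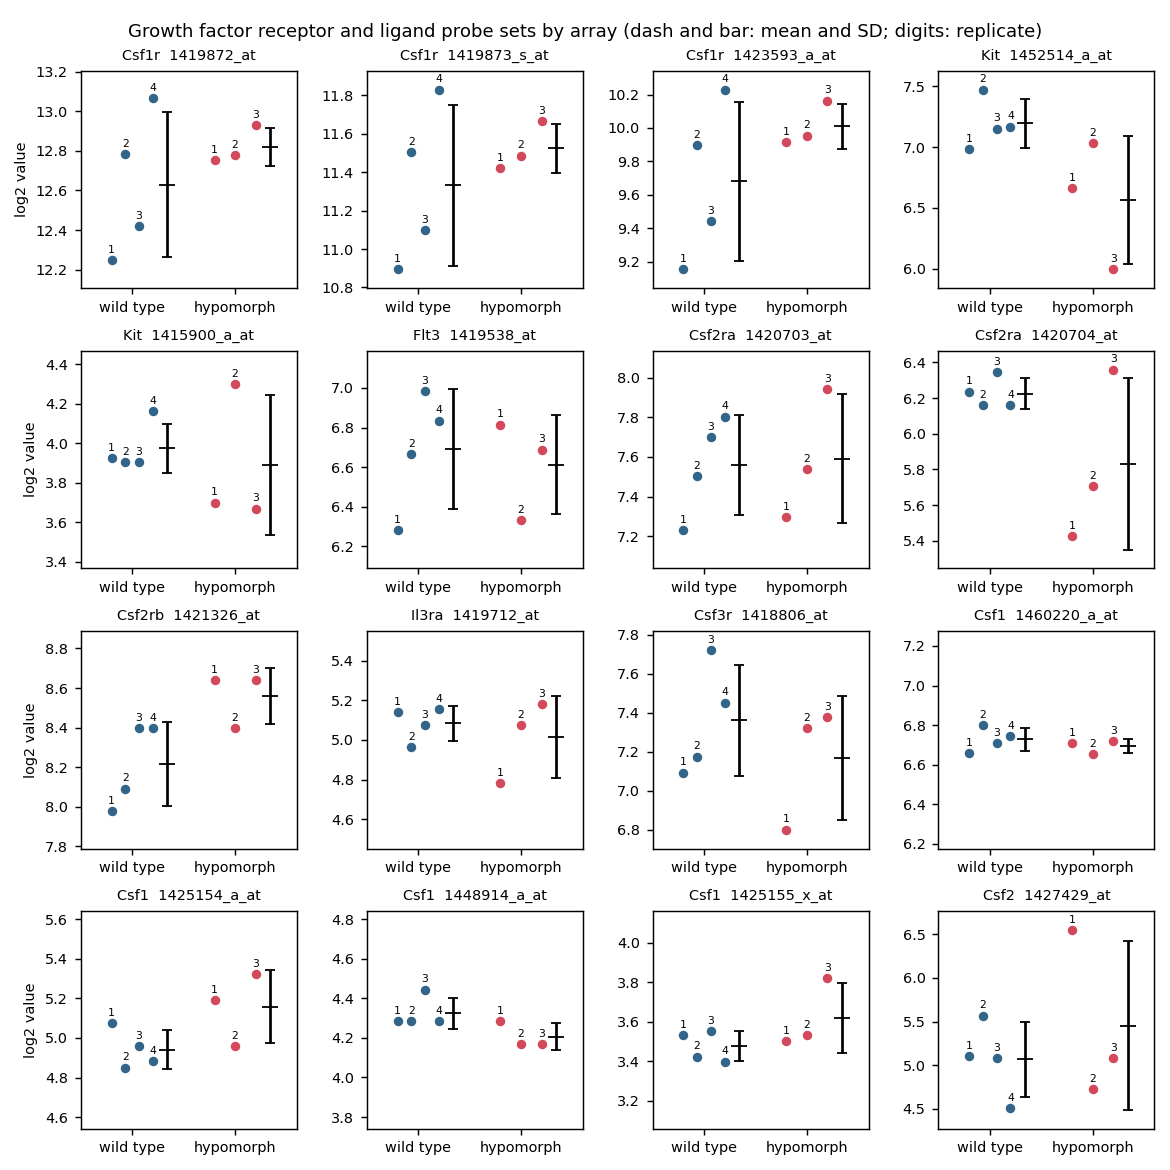
Log2 value (vertical axis, with its own range in each panel) of the 16 probe sets on the 4 wild-type arrays (blue) and 3 hypomorph arrays (red), with the replicate number beside each point and the mean ± SD as a black bar. The groups overlap in every panel, and Csf1r varies more among wild-type arrays than among hypomorph arrays.

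Kit, the receptor of stem cell factor, marks blood progenitors, early erythroid cells and mast cells, and showed the largest difference of the group. Its probe set 1452514_a_at read 6.98, 7.47, 7.15 and 7.17 in wild type against 6.66, 7.03 and 5.99 in the hypomorph. Hypomorph replicates 1 and 3 lay below all wild-type arrays, whereas hypomorph replicate 2 lay within them. The log2 change was -0.63 (95% confidence interval -1.18 to -0.08), a level 1.55-fold lower, with an adjusted p = 0.644 in limma and an exact two-sided permutation p = 0.0571. Leaving out hypomorph replicate 3 brought the change to -0.35, and leaving out hypomorph replicate 2 to -0.87. The probe set 1415900_a_at of Kit read only 3.67 to 4.30 over all arrays, below the array medians, and gave -0.08 (-0.46 to 0.29). The mean over both probe sets gave -0.36.

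Most markers on 3 lists that include, but are not limited to, cells that make Kit were lower as well. Of the erythroid list, 10 of 10 measured genes were lower, and their mean log2 level ran from 7.84 to 8.60 in wild type and stood at 7.26, 8.80 and 5.81 in hypomorph replicates 1 to 3. The array with the least Kit, hypomorph replicate 3, had the lowest erythroid level, and the hypomorph array with the most Kit had the highest. Of the basophil and mast cell list, 8 of 11 were lower, at mean levels of 4.91 to 5.60 in wild type against 4.61 to 4.73 in the hypomorph. In this list Cma1 and Tpsb2, a chymase and a tryptase of connective tissue mast cells, stayed under the lower quartile on all arrays. Their changes were 0.05 and 0.13. With Mcpt4 (0.13, under the lower quartile on 5 of 7 arrays) they were the 3 genes of the list that were not lower. Fcer1a, the IgE receptor chain of basophils and mast cells, had the largest change of the list, -1.76, and Mcpt8 the next, -1.61. Of the stem and progenitor list, 8 of 10 were lower, at 5.17 to 5.27 and 4.92 to 5.17. Among them were Myb, a transcription factor of progenitors, with a change of -0.33, and Cd34 with only -0.0023. Hoxa9 (0.015) and Erg (0.15) were higher. Cd34, Hoxa9, Erg and Meis1 read below the median of every array, and Angpt1 and Mecom under the lower quartile. No gene of these lists passed the adjusted threshold, and the part of these cells in the Kit values was not tested.

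**Figure D2:**
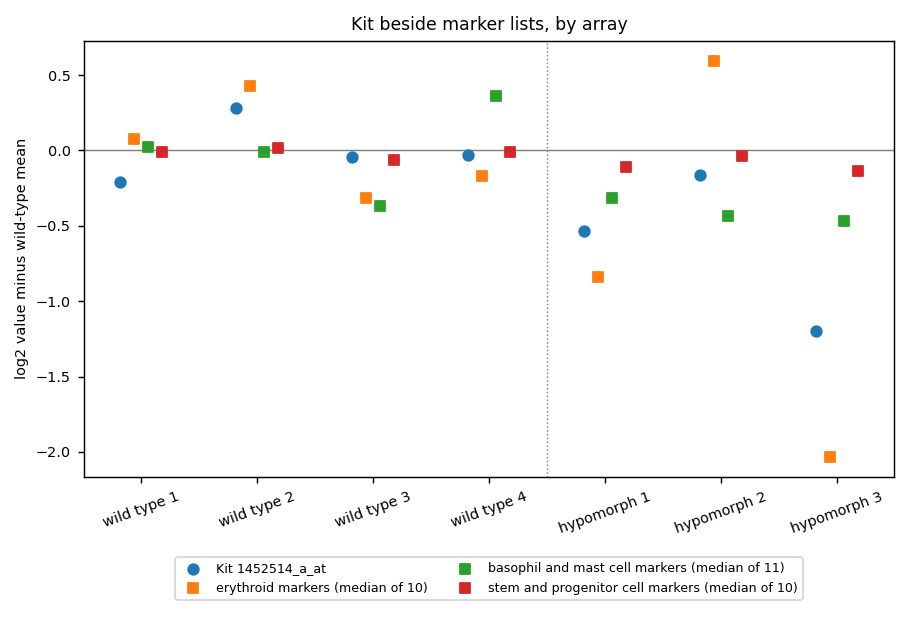
Difference of each array from the wild-type mean on the log2 scale (vertical axis) for Kit probe set 1452514_a_at (circles) and for the median gene of the erythroid, basophil and mast cell, and stem and progenitor marker lists (squares), for the 4 wild-type and 3 hypomorph arrays. On hypomorph replicate 3 Kit and the erythroid list are both at their lowest, and on hypomorph replicate 2 the erythroid list is above the wild-type mean while Kit is below it.

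Trim37 and Cenph were among the 3 genes whose pattern over the 7 arrays was most like that of Kit, out of 1467 probe sets that name 1 gene and span at least 1 log2 unit. Their Pearson r with Kit was 0.994 and 0.983. Trim37 encodes a ubiquitin ligase and Cenph a kinetochore protein. Trim37 read 5.65, 6.22, 5.75 and 5.83 in wild type against 5.12, 5.79 and 4.33 in the hypomorph. These r values were picked as the highest of many, come from arrays that share the difference between the groups, and are given without a test.

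Csf1r, the M-CSF receptor of monocytes and macrophages, was measured by 3 probe sets. The one with the highest signal, 1419872_at, read 12.25, 12.79, 12.42 and 13.06 in wild type against 12.75, 12.78 and 12.93 in the hypomorph. The wild-type arrays spread wider than the hypomorph arrays, with an SD of 0.367 against 0.0957, and enclosed all of them. The log2 changes were 0.19 (95% confidence interval -0.25 to 0.63) for this probe set, 0.19 (-0.31 to 0.69) for 1419873_s_at and 0.33 (-0.23 to 0.89) for 1423593_a_at (limma adjusted p = 0.793, 0.818 and 0.724). The 3 probe sets followed each other over the 7 arrays with Pearson r from 0.988 to 0.998. Without wild-type replicate 1 the changes were 0.06, 0.05 and 0.15, and without wild-type replicate 4 they were 0.34, 0.36 and 0.51.

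The wild-type arrays took the same order in Csf1r as in the red pulp macrophage list, with replicate 4 highest, then 2, 3 and 1. This list includes Vcam1, Spic and the C1q genes. All 13 of its measured genes were higher in the hypomorph, with a median change of 0.25, and its mean log2 level was 10.48, 11.41, 10.82 and 11.54 in wild type against 11.43, 11.22 and 11.31 in the hypomorph. As in Csf1r, the wild-type arrays enclosed the hypomorph arrays. Monocyte markers went the other way, 7 of 8 being lower, with mean levels from 8.17 to 8.63 in wild type against 7.73 to 8.45 in the hypomorph. The part of macrophages and monocytes in the Csf1r values was not tested.

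Flt3, the receptor through which Flt3 ligand supports dendritic cell progenitors and dendritic cells, read 6.28, 6.66, 6.99 and 6.83 in wild type against 6.81, 6.33 and 6.69 in the hypomorph. The lowest array of each group was close to the other, and the highest lay in wild type. Between the groups the log2 change was -0.08 (95% confidence interval -0.51 to 0.35, limma adjusted p = 0.922). Leaving out wild-type replicate 3 gave 0.02 and leaving out hypomorph replicate 2 gave 0.06, so the sign rested on single arrays. The markers of the dendritic cell lineages gave median changes of 0.08 (CD8 lineage, 6 of 7 higher), 0.23 (CD11b lineage, 7 of 7 higher) and -0.17 (plasmacytoid, 5 of 8 lower).

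**Figure D3:**
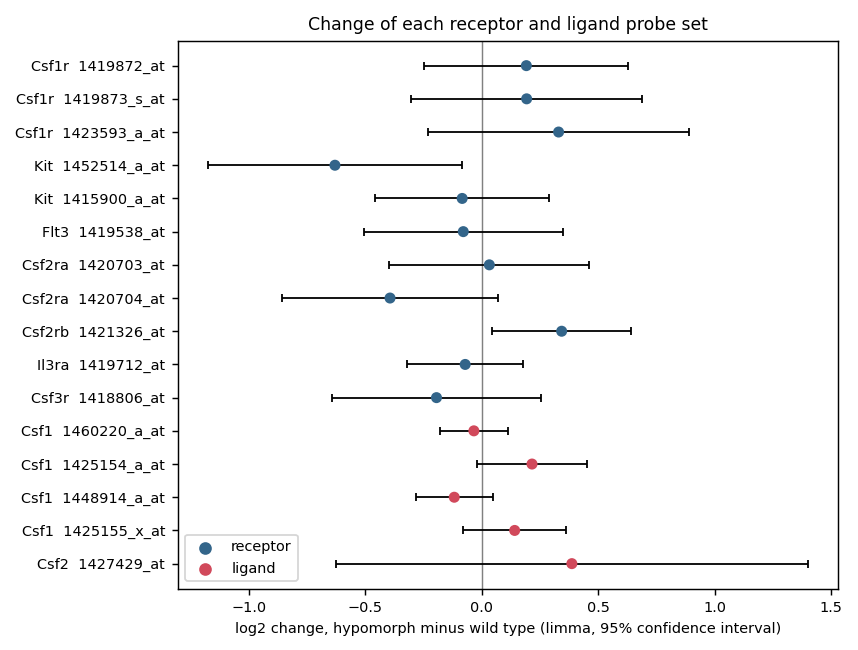
Log2 change of each probe set between hypomorph and wild type (horizontal axis) with its 95% confidence interval from the limma fit, receptors in blue and ligands in red. The intervals of Kit 1452514_a_at and Csf2rb exclude 0 without adjustment, and the other 14 include it.

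Csf2rb encodes the common beta chain, the signalling subunit that the GM-CSF, interleukin-3 and interleukin-5 receptors share. It read 7.98, 8.09, 8.40 and 8.40 in wild type against 8.64, 8.40 and 8.64 in the hypomorph. All 3 hypomorph arrays were above the wild-type mean, but hypomorph replicate 2 had exactly the value of wild-type replicates 3 and 4. The log2 change was 0.34 (95% confidence interval 0.04 to 0.64), a level 1.27-fold higher, with an adjusted p = 0.644 in limma and an exact two-sided permutation p = 0.171. It ran from 0.26 without wild-type replicate 1 to 0.42 without hypomorph replicate 2. Red pulp macrophage markers were likewise higher (13 of 13, levels above), but the wild-type arrays took another order than in Csf2rb. Wild-type replicate 2 was above wild-type replicate 3 in that list (11.41 against 10.82) and below it in Csf2rb (8.09 against 8.40). Most neutrophil (12 of 13), monocyte (7 of 8), and basophil and mast cell markers (8 of 11) went the other way and were lower. The part of any of these cells in the Csf2rb values was not tested.

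Mice carry a close copy of this gene, Csf2rb2, whose product serves interleukin-3 alone. The Csf2rb2 probe set read 7.41, 7.53, 7.81 and 7.69 in wild type against 7.76, 7.69 and 8.06 in the hypomorph, a log2 change of 0.23 (95% confidence interval -0.07 to 0.52, limma adjusted p = 0.666). Csf2rb and Csf2rb2 had a Pearson r of 0.887 over the 7 arrays. The copies are similar in sequence, so their probe sets may share signal. A probe set annotated to both genes gave 0.11 (-0.20 to 0.42).

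Csf2ra encodes the alpha chain that binds GM-CSF, and its 2 probe sets disagreed. The probe set 1420703_at read 7.23, 7.50, 7.70 and 7.80 in wild type against 7.30, 7.54 and 7.94 in the hypomorph, a log2 change of 0.03 (95% confidence interval -0.40 to 0.46). The probe set 1420704_at read 6.24, 6.16, 6.34 and 6.16 in wild type against 5.42, 5.71 and 6.36 in the hypomorph, a log2 change of -0.39 (-0.86 to 0.07). In the latter, hypomorph replicates 1 and 2 lay below all wild-type arrays and hypomorph replicate 3 above all of them. The limma adjusted p were 0.971 and 0.653, and the second change ran from -0.66 (hypomorph replicate 3 left out) to -0.19 (hypomorph replicate 1 left out). The first ran from -0.14 (hypomorph replicate 3 left out) to 0.18 (hypomorph replicate 1 left out) and was below 0 with wild-type replicate 1 left out too. Both probe sets are annotated to the same transcript record, and their Pearson r over the 7 arrays was 0.528.

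Il3ra, the alpha chain that binds interleukin-3, is known in humans for its high level on plasmacytoid dendritic cells and basophils. It read 5.14, 4.96, 5.08 and 5.16 in wild type against 4.78, 5.08 and 5.18 in the hypomorph, below the median of each array. The hypomorph arrays ran from below the wild-type range (replicate 1) to just above it (replicate 3). The log2 change was -0.07 (95% confidence interval -0.32 to 0.18, limma adjusted p = 0.875), and 0.04 without hypomorph replicate 1. The mean level of the plasmacytoid list ran from 5.41 to 5.97 in wild type and from 5.17 to 5.46 in the hypomorph, and that of the basophil and mast cell list is given above with Kit.

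Csf3r, the G-CSF receptor, is carried by neutrophils and their precursors. It read 7.09, 7.18, 7.72 and 7.45 in wild type against 6.80, 7.32 and 7.38 in the hypomorph. Hypomorph replicate 1 was the lowest of all arrays, and the others lay within the wild-type range. Between the groups the log2 change was -0.19 (95% confidence interval -0.65 to 0.26, limma adjusted p = 0.795), and it ran from -0.30 (hypomorph replicate 3 left out) to -0.01 (hypomorph replicate 1 left out). Neutrophil markers were lower in 12 of 13 cases with a median of -0.53, and their mean log2 level was 10.82 to 11.14 in wild type against 9.83, 10.37 and 11.07 in hypomorph replicates 1 to 3. Among them the granule protease genes Elane and Prtn3 gave -0.63 and -0.52, but both were lowest on hypomorph replicate 2 (8.09 and 9.37). The array with the least Csf3r was also that with the lowest neutrophil level, and the part of neutrophils in Csf3r was not tested.

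**Figure D4:**
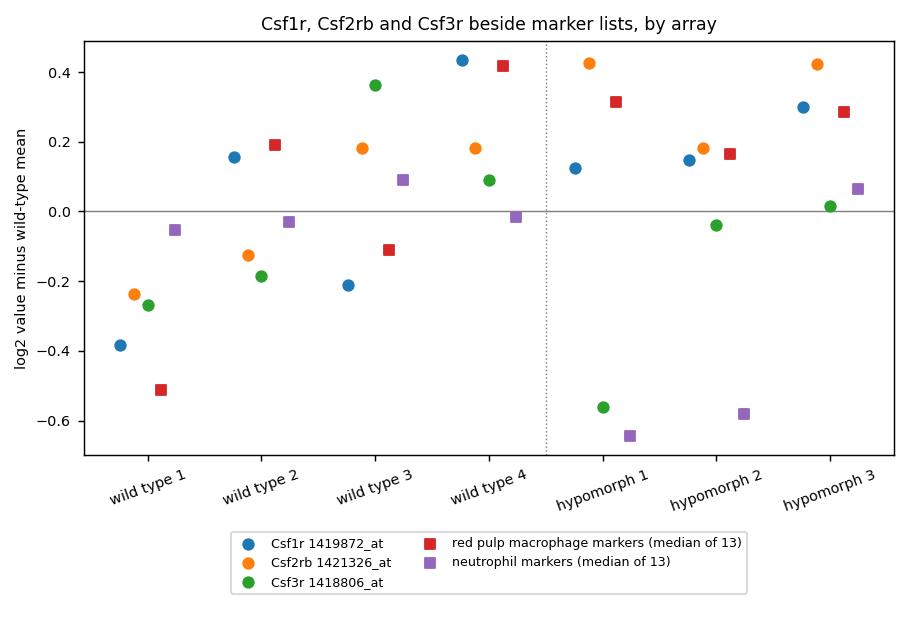
Difference of each array from the wild-type mean on the log2 scale (vertical axis) for Csf1r 1419872_at, Csf2rb and Csf3r (circles) and for the median gene of the red pulp macrophage and neutrophil marker lists (squares). Csf1r and the macrophage list are lowest on wild-type replicate 1 and highest on wild-type replicate 4, and Csf3r and the neutrophil list are lowest on hypomorph replicate 1.

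Csf1, which encodes M-CSF, was measured by 4 probe sets that differed in sign. The one with the highest signal, 1460220_a_at, read 6.66, 6.80, 6.71 and 6.74 in wild type against 6.71, 6.65 and 6.72 in the hypomorph, a log2 change of -0.03 (95% confidence interval -0.18 to 0.11). This was the narrowest interval of the 16 probe sets. The probe set 1425154_a_at gave 0.22 (-0.02 to 0.45), with hypomorph replicates 1 and 3 above all wild-type arrays. This change was 0.13 with hypomorph replicate 3 left out and 0.31 with hypomorph replicate 2 left out, and the probe set read below the median of every array. The probe set 1448914_a_at gave -0.12 (-0.28 to 0.05), and 1425155_x_at, which read 3.40 to 3.82 near the lower quartiles, gave 0.14 (-0.08 to 0.36), or 0.04 with hypomorph replicate 3 left out. Their limma adjusted p ran from 0.646 to 0.900. The mean over the 4 probe sets gave 0.05.

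Csf2 encodes GM-CSF, which activated T cells and other lymphocytes secrete. It read 5.11, 5.57, 5.08 and 4.51 in wild type against 6.55, 4.73 and 5.08 in the hypomorph. Hypomorph replicate 1 was well above all other arrays, and the remaining hypomorph arrays lay within the wild-type range. For Csf2 the log2 change was 0.39 (95% confidence interval -0.63 to 1.40, limma adjusted p = 0.820), the widest interval of the 16 probe sets. Leaving out hypomorph replicate 1 turned it to -0.16, and leaving out hypomorph replicate 2 took it to 0.75. On hypomorph replicate 1 the mean levels of the T cell list (8.06) and of the NK cell and cytotoxic lymphocyte list (8.51) were within their wild-type ranges, 7.57 to 8.43 and 8.25 to 8.83. In the latter list, Ifng, the interferon gamma gene, read 8.53 on this array against 7.47 to 8.23 in wild type. The granzyme gene Gzmb read 12.67 against 11.93 to 12.33, whereas Eomes read 5.36, below its wild-type range of 5.41 to 6.16. The other measured genes of that list lay within their wild-type ranges. The part of lymphocytes in the Csf2 values was not tested. The most similar patterns by the rule used for Kit were those of Abcc5, a membrane transporter, Gbp6, an interferon-induced GTPase, and Seh1l, a nuclear pore protein (Pearson r = 0.916, 0.914 and 0.905). Gbp6 read 9.33 on hypomorph replicate 1 and 7.75 to 8.47 on all other arrays.

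The probe set that names both Rpl13a and Flt3l read 6.58 to 7.36 in wild type against 6.76 to 6.99 in the hypomorph, which says nothing about Flt3l alone. Of the other ligands of these pathways, Kitl (stem cell factor) varied most, with 5.88, 7.79, 6.79 and 7.69 in wild type against 7.43, 7.44 and 7.42 in the hypomorph. Wild-type replicate 1 was the lowest array, as it was for Csf1r, and the change was 0.39 (95% confidence interval -0.61 to 1.40), or 0.01 without it and 0.64 with wild-type replicate 2 left out. Il3, Il5 and Csf3, the genes of interleukin-3, interleukin-5 and G-CSF, were under the lower quartile on every array, so their changes of 0.01, 0.08 and 0.20 say little. Il34, a further ligand of Csf1r, read at or near the lower quartiles and gave 0.00 (-0.31 to 0.30). Stroma and endothelium, known sources of Kitl and Csf1, had 11 of 12 markers higher, at mean levels of 4.48 to 5.09 in wild type against 5.07 to 5.26 in the hypomorph. Col1a1 and Tek of that list were under the lower quartile on every array, and Col3a1, Cdh5, Kdr and Pdgfrb were below the median of every array. The part of stroma and endothelium in the Kitl and Csf1 values was not tested.

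Of 67 other genes of these pathways that were listed, 59 had a probe set of their own, 35 being higher and 24 lower in the hypomorph. None passed the adjusted threshold (limma, lowest adjusted p = 0.644). At an unadjusted p under 0.05 there were 7 higher and 1 lower, 13.6%, against 7.17% of 12393 genes taken with 1 probe set each, and this count of 8 became 2 when hypomorph replicate 1 was left out, 3 when wild-type replicate 2 was, and 12 when hypomorph replicate 2 was. The groups did not overlap for 3 of the 59, 5.08%, against 5.15% of those genes. The median change was 0.03, and 0.00 over all genes.

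Among the other receptors, Il6st, the gp130 chain shared by the interleukin-6 family, read 7.53, 7.63, 7.92 and 8.01 in wild type against 8.73, 8.24 and 8.32 in the hypomorph. It had the largest change of the 59, 0.66 (95% confidence interval 0.29 to 1.03), without overlap of the groups. The 3 probe sets of Il6st ran from 0.13 to 0.74. Pdgfra, a receptor tyrosine kinase of stromal cells, gave 0.47 (0.08 to 0.87) but read below the median of every array. Il5ra, the interleukin-5 binding chain, gave -0.26 (-0.53 to 0.01), or -0.14 with hypomorph replicate 1 left out. It was under the lower quartile on 5 of 7 arrays, which limits this change. Of the 8 JAK and STAT genes, 4 were higher, with a median of 0.00. Stat3, which carries the G-CSF and interleukin-6 signals, gave 0.34 (0.07 to 0.62), and its 3 probe sets ran from 0.03 to 0.34. The kinase genes Jak2 and Jak1 gave -0.05 and 0.06, though the 3 probe sets of Jak1 ran from -0.01 to 0.61. Stat5a and Stat5b, the main STAT genes of GM-CSF and interleukin-3 signalling, gave -0.02 and -0.03 with their probe sets of highest signal. That of Stat5a read below the median of every array, which limits its change.

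Feedback inhibitors were higher in 7 of 13 cases with a median of 0.06. Socs2, a suppressor of cytokine signalling, gave 0.55 (95% confidence interval 0.07 to 1.03), from 8.20 ± 0.250 (SD, n = 4) to 8.75 ± 0.406 (SD, n = 3), without overlap, or 0.31 with hypomorph replicate 1 left out. Dok1, an adaptor that dampens kinase signalling, gave 0.16 (0.03 to 0.30), also without overlap. Spry2, an inhibitor of the Ras pathway, gave -0.44 (-0.78 to -0.09), or -0.29 with hypomorph replicate 3 left out, and its other probe set gave 0.14. Socs3, an inhibitor of gp130 and G-CSF receptor signalling, was named after its values were seen. It gave 0.57 (0.06 to 1.07), and its 3 probe sets gave 0.54 to 0.59. Cish, a common target of STAT5, gave -0.07.

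Adaptors and kinases were higher in 11 of 16 cases with a median of 0.09. The 3 with the smallest p were the docking protein gene Gab1 (0.61, 95% confidence interval 0.01 to 1.20), Pik3r1 (0.31, -0.01 to 0.63), which encodes a regulatory subunit of PI3 kinase, and Gab2 (0.28, -0.05 to 0.61), a further docking protein gene. The 3 probe sets of Gab1 ran from 0.08 to 0.83. With hypomorph replicate 1 left out Pik3r1 gave 0.17, and with hypomorph replicate 3 left out Gab2 gave 0.16. Gab2 read below the median of every array. Targets of signalling were higher in 6 of 11 cases with a median of 0.01. By smallest p these were Myc, lower in the hypomorph (-0.24, -0.51 to 0.02), the cyclin gene Ccnd1 (0.39, -0.07 to 0.85) and the kinase gene Pim2 (0.31, -0.07 to 0.69). Myc gave -0.11 with hypomorph replicate 3 left out, Ccnd1 gave 0.23 with wild-type replicate 1 left out and 0.25 with hypomorph replicate 1 left out, and Pim2 gave 0.21 with wild-type replicate 4 left out. In the limma fit every gene named in these lists had an adjusted p of 0.644 or more.

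**Figure D5:**
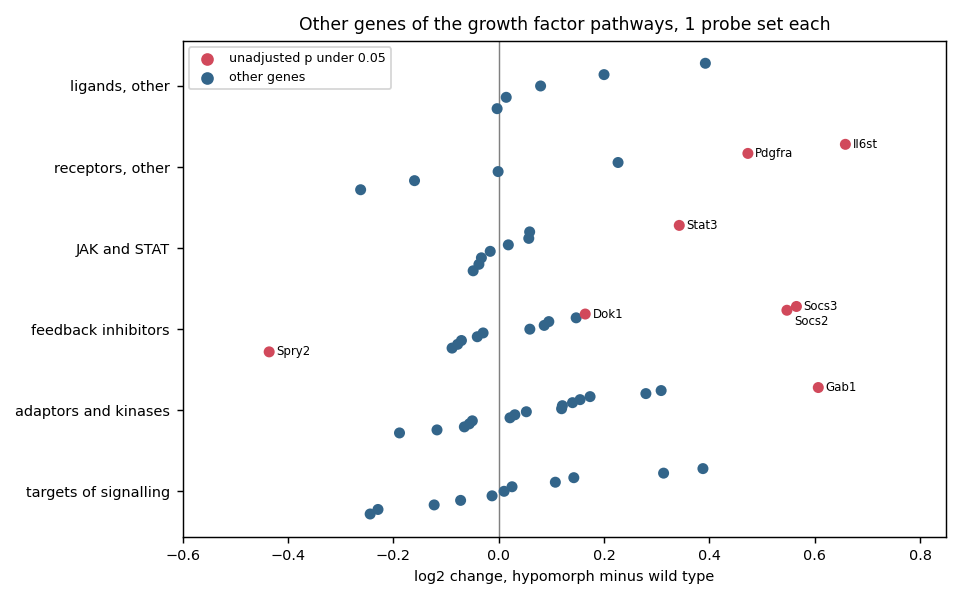
Log2 change between hypomorph and wild type (horizontal axis) of the 59 other pathway genes, 1 probe set each, by list. Genes with an unadjusted p under 0.05 are red and named, and 7 of these 8 lie to the right of 0.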

How the data were processed

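RNA of CD11c+ spleen cells (100 ng in total per sample, per the labels' protocols) was hybridized to 1 Affymetrix array per sample. The deposited table holds log2 signals, 1 for each probe set on each array, and the submitters' processing notes name Affymetrix Power Tools. Background correction, normalization and probe summary: not given in the sources used here. Array quartiles were nearly equal, and some probe sets had identical values on several arrays; the effect of the normalization on small differences was not tested. The number of arrays limits the precision.

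Of 22690 probe sets, 64 controls and 1 without values were left out. Of the others, 20379 named 1 gene, 691 several and 1555 none in the platform's annotation. Symbols were updated by Entrez identifier in a RefSeq table of GRCm38.p6 (20350 found), which also supplied the promoter stretches. Of the 10 genes, 8 had a promoter entry that was used. The deposited log2 values were fitted with 2 group means and no covariate (lmFit and eBayes of limma 3.58.1, under R 4.3.3), with Benjamini-Hochberg adjustment over all 22625 probe sets. The steps were tested on simulated data. Exact two-sided permutation tests used the 35 splits of the arrays. Lists used for each gene the probe set with the highest mean. A list level is the mean log2 value over its genes. No set was tested as a whole.

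The members and lists were chosen with earlier results of these data known. Named were all members, Atg16l1, up to 3 genes per pathway list by smallest p, the 3 genes most like a member spanning at least 1 log2 unit, and markers beside a result; 1 of the genes most like Kit is not reported here. Itgax, Fcer1a, Vcam1, Spic, Cma1, Tpsb2, Ifng, Col1a1, Tek, Il3, Il34, Stat5a, Stat5b, Cish and Socs3 were added by their function, background level or value. The same holds for Mcpt4, Cd34, Hoxa9, Erg, Angpt1, Mecom, Col3a1, Kdr and Pdgfrb.

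The lists not described in the results gave median changes of -0.03 (pan dendritic cell, 4 of 8 higher), 0.04 (T cell, 7 of 9 higher), 0.03 (NK cell and cytotoxic lymphocyte, 5 of 9 higher) and -0.20 (B cell, 2 of 9 higher). Alternatives were centring of arrays, a variance trend with robust settings, array weights, 32 added to the linear value, a minimum mean of 5, a replicate block, gene means, and each array left out.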

Additional observations from a re-analysis of the deposited data

Results flagged for a closer look

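A wild-type array stood apart from the other 3 by Dixon's criterion in 2 of 38 probe sets examined, where chance gives about 1 in 20. For Csf1 1448914_a_at, wild-type replicate 3 read 4.44 and the other wild-type arrays all 4.29, an identical deposited value. For Kit 1415900_a_at, wild-type replicate 4 read 4.16 and the others between 3.91 and 3.93. Both probe sets lay below the median of every array. Groups of 3 arrays, the hypomorph among them, were not examined in this way.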

How the results depend on the processing

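No growth factor receptor or ligand probe set and no gene of the pathway lists passed the adjusted threshold of 0.05 under any alternative run, and the adjusted p of the former ran from 0.173 (Kit 1452514_a_at without hypomorph replicate 2) to 0.997. Over all probe sets, the count that passed was 0, but 5 with each array centred on its median, 5 with a variance trend and robust settings, 3 with array weights and 3 with a minimum mean of 5, and between 0 and 2 with single arrays left out. Kit 1452514_a_at and Csf2rb kept their direction under all alternatives. Signs turned for Csf1 1460220_a_at with the mean over its probe sets (0.051), for Csf2ra 1420703_at with array weights (-0.075) and with the mean over its probe sets (-0.18), and for Jak2 with the mean over its probe sets (0.0098). With single arrays left out, signs also turned for Csf2 (-0.16 to 0.75), Csf2ra 1420703_at (-0.14 to 0.18), Flt3 (-0.22 to 0.060), Il3ra (-0.16 to 0.044), Kit 1415900_a_at (-0.29 to 0.025), Jak2 (-0.077 to 0.0031) and Jak1 (-0.019 to 0.10). The cause was not tested, beyond the array left out or the probe sets averaged. The replicate numbers name arrays and were not taken as pairs: the deviations of same-numbered arrays correlated at 0.102, 0.0977 and 0.339, and 1 of 3 hypomorph arrays correlated best with its own number. With the replicate block, 0 of 16 receptor and ligand probe sets, 0 pathway genes and 0 of all probe sets passed, and at an unadjusted p under 0.05 there were 3 of 16, Csf1r 1423593_a_at (0.51) having joined Kit and Csf2rb. Wild-type replicate 4 has no hypomorph array of its number, so it does not inform the change under this block. The changes are those with wild-type replicate 4 left out, that of Csf1r 1423593_a_at (0.51) included. With the mean over the probe sets of a gene the count at an unadjusted p under 0.05 was 1, and Kit (-0.36) was lost. Low signal limits Csf1 1425155_x_at, Kit 1415900_a_at, Il3, Il5, Csf3, Il34 and Il5ra. Csf1 1425154_a_at, Csf1 1448914_a_at, Il3ra, Pdgfra, Spry2, Gab2 and Stat5a also lay below the median of every array, and Csf2 below it on 5 of 7 arrays.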
